A study of Rattus norvegicus with 15 samples.

Results

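Calcium dobesilate (CaD) treatment was compared with the untreated diabetic model in peripheral blood DNA of rats, array against array. The comparison used 6 of the 15 arrays of the study, the 3 titled CaD treatment and the 3 titled DR model, with 1 rat per array. Membership came from the titles alone and from no measured value. All rats were male Sprague Dawley, bought at 8 weeks and 20 weeks old by the labels. DR model rats (diabetic retinopathy model) had received 45 mg/kg streptozotocin intravenously, counted as diabetic above 13.9 mmol/L blood glucose, and then had distilled water by gavage. CaD rats had the same streptozotocin injection, then CaD at 0.25 g/kg per day by gavage and 1.5 IU of insulin per day intravenously. Model rats had no insulin, so the drug and insulin cannot be told apart in any difference below. The labels name 10 rats for each group and do not say how 3 of them were picked for the arrays. The study also holds controls given citrate buffer without streptozotocin, rats of the model given another Chinese formula, with no dose or insulin named for them, and rats given Luo-tong formula (LTF) at 2 g/kg per day with the same insulin. These 9 further arrays entered the estimate of the spread and are given beside the results where they help to read a level.

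CaD is a vasoprotective drug used in diabetic retinopathy, streptozotocin destroys the insulin-producing beta cells of the pancreas, and insulin lowers blood glucose. In methylated DNA immunoprecipitation (MeDIP) an antibody against 5-methylcytosine recovers methylated fragments, which are hybridised in one colour against input DNA in the other. The log2 ratio of MeDIP to input is a relative measure that depends on how many methylated CpG sites a fragment carries as well as on the share of DNA molecules that are methylated. Tiling arrays of this type commonly use longer probes where the sequence is rich in A and T, so that probes melt at similar temperatures, and probe length is therefore reported here as a class of its own. Blood DNA comes from white cells of several types. A change of methylation within cells and a change in the makeup of the blood cannot be told apart in these samples, and no gene-level marker of a cell type could be read from the probes.

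The 6 arrays were not evenly spread over the scans. DR model replicate 3 shared scan 6 with CaD replicates 1 and 2, whereas DR model replicates 1 and 2 were in scans 5 and 1 and CaD replicate 3 in scan 3. Control replicates 2 and 3 shared scan 5 with DR model replicate 1. Other formula replicates 1 to 3 shared scan 3 with CaD replicate 3. Control replicate 1 was in scan 2 and LTF replicates 1 to 3 in scan 4, apart from other groups. Between arrays that share a scan, a likeness of groups and the scan cannot be told apart. MeDIP signal was well above background on 77.6%, 88.2% and 86.5% of probes in DR model replicates 1 to 3, and on 87.5%, 86.6% and 88.7% in CaD replicates 1 to 3. DR model replicate 1 was thus the array with the fewest probes above background. The distribution of log2 ratios was wide in DR model replicates 1 and 2, with interquartile ranges of 1.60 and 1.52, and narrow in DR model replicate 3, at 1.22. CaD arrays had 1.22, 1.23 and 1.28. DR model replicate 3 was therefore as narrow as the CaD arrays of its own scan, and the groups overlapped. The 5th percentile of the log2 ratio was higher by 0.22 with CaD (exact two-sided permutation test, p = 0.3) and the 95th percentile fell by 0.23 (p = 0.2), where 3 arrays against 3 cannot give a p below 0.1.

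Region profiles set DR model replicate 3 apart from the rest of its group. After the mean over all 15 arrays was subtracted in each of 16782 regions, its values correlated with CaD replicates 1 and 2 at 0.37 and 0.47 and with CaD replicate 3 at 0.11. With DR model replicates 1 and 2, its own group, they correlated at -0.11 and -0.32. DR model replicates 1 and 2 correlated with each other at 0.17, although they came from different scans and scan days. These correlations describe 6 arrays of one design, and the mean of the 15 arrays subtracted from each contains them. Spread within the DR model was larger, with a median SD over regions of 0.118 (n = 3) against 0.0682 (n = 3) with CaD. The DR model had the larger SD in 74.6% of regions. Between replicates 1 and 2 alone the median SD was 0.0953 in the DR model and 0.0512 with CaD, so a larger spread remained without DR model replicate 3. Because of the profile of DR model replicate 3, values with it left out or within scan 6 are given beside the results below. Whether the likeness of that array to CaD comes from its scan or from the animal was not tested.

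Probes of different lengths differed in opposite directions between the groups. Each array was centred on its own median, so these directions are relative within an array and not independent of each other or of its width. The 84007 probes of 45 nucleotides, the shortest and most common length and 48.7% of all, had mean log2 ratios of 0.38, 0.41 and 0.32 in DR model replicates 1 to 3 and of 0.32, 0.30 and 0.29 in CaD replicates 1 to 3. All 3 CaD arrays lay below all 3 DR model arrays, though DR model replicate 3 and CaD replicate 1 were nearly level. The CaD mean of 0.30 ± 0.016 (SD, n = 3) stood against 0.37 ± 0.043 (SD, n = 3) for the model rats, a difference of -0.068 (exact two-sided permutation test, p = 0.1, the smallest p the design allows, and 0.3 after Benjamini-Hochberg adjustment over 16 lengths). The 23710 probes of 60 nucleotides, the longest, had means of -1.10, -1.13 and -0.95 in DR model replicates 1 to 3 and of -0.97, -0.87 and -1.01 in CaD replicates 1 to 3. These groups overlapped, because DR model replicate 3 lay above CaD replicates 1 and 3. The difference was 0.11 (exact two-sided permutation test, p = 0.3, adjusted 0.3). With quantile normalization, which gives all arrays the same distribution, the differences were -0.019 at 45 nucleotides and -0.0069 at 60.

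Lengths in between filled in a graded series. All 15 lengths from 46 to 60 nucleotides had a higher mean with CaD, from 0.019 at 46 nucleotides to 0.13 at 59 nucleotides, and the groups overlapped at each of them. The 45-nucleotide class was the sole length with a lower mean and the sole length without overlap. Without DR model replicate 3 the difference was -0.092 at 45 nucleotides and 0.17 at 60. Within scan 6, where 2 CaD arrays stand against 1 DR model array, the differences over the 16 lengths ran only from -0.013 to 0.035. The span between the longest and shortest probes was -1.49, -1.53 and -1.28 in DR model replicates 1 to 3 and -1.28, -1.17 and -1.29 in CaD replicates 1 to 3. It was narrower by 0.18 with CaD (exact two-sided permutation test, p = 0.3), with DR model replicate 3 again among the CaD arrays. Signal over background moved with length too. At 60 nucleotides MeDIP signal was well above background on 43.4%, 59.9% and 55.8% of probes in DR model replicates 1 to 3 and on 56.8%, 55.6% and 61.2% in CaD replicates 1 to 3, against at least 88.7% of 45-nucleotide probes on each of the 6 arrays. Its part in the length differences was not tested.

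**Figure D1:**
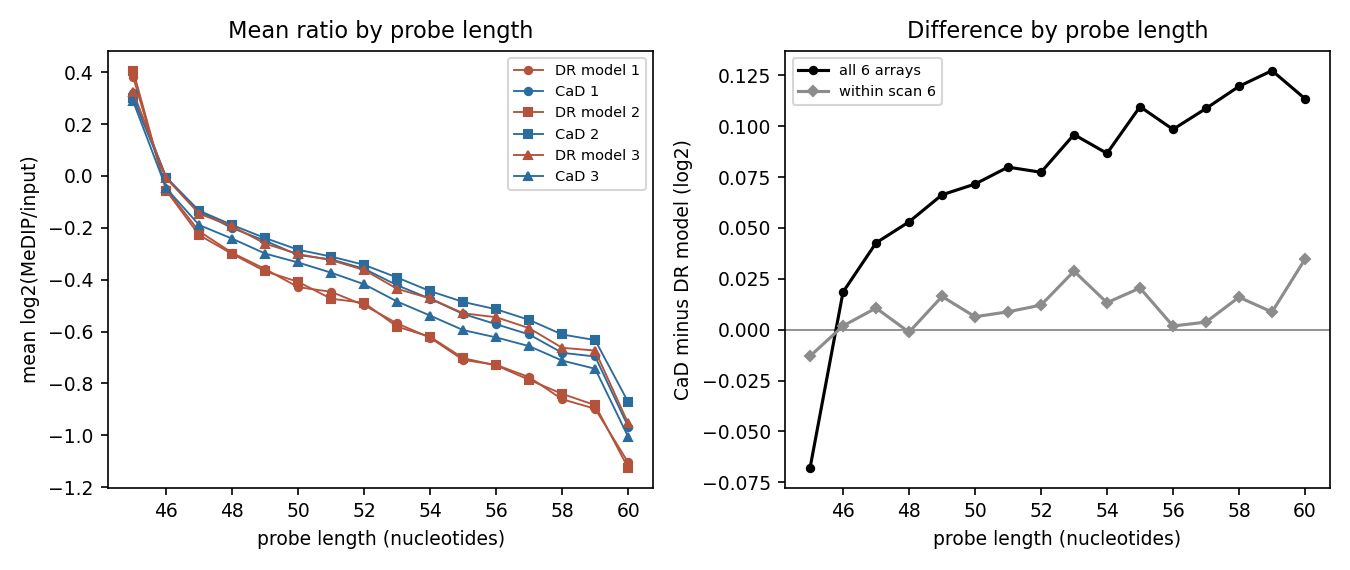
Mean log2(MeDIP/input) of the probes of each length on each of the 6 arrays (left; red DR model, blue CaD, markers for replicates) and the difference CaD minus DR model by probe length in nucleotides (right; black all 6 arrays, grey within scan 6). DR model replicate 3 runs with the CaD arrays, and the difference, from -0.068 at 45 nucleotides to 0.13 at 59, shrinks to between -0.013 and 0.035 within scan 6.

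Length and level went together, so both were read at once. Probes were put into 5 bins by their mean log2 ratio over all 15 arrays. Among 45-nucleotide probes the median difference passed from 0.14 in the lowest bin to -0.16 in the highest. Among 60-nucleotide probes it passed from 0.12 to -0.064. Within a single length, then, low probes were higher and high probes lower with CaD. Across probes the correlation of level with difference was -0.34 at 45 nucleotides, -0.32 from 46 to 50, -0.26 from 51 to 59 and -0.060 at 60. These probes share arrays, and the level itself contains the 6 arrays compared. Within scan 6 the same correlations were -0.037, 0.031, 0.084 and 0.13, and no longer negative in the 3 longer classes.

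Regions, which are runs of at least 3 probes with gaps of at most 500 bp, showed the same tilt. Over 16782 regions, 8718 were higher and 8064 lower with CaD, and the median difference was 0.0059. The middle 90% of regions lay between -0.22 and 0.23, and 606 regions differed by more than 0.3 in either direction. In the limma fit with Benjamini-Hochberg adjustment over all regions, 0 of them passed an adjusted p of 0.05 (0% of regions called), with 0.105 as the smallest adjusted p. At an unadjusted p under 0.05 the fit gave 2514 regions (15% of those tested), of which 1081 were higher (6.44%) and 1433 lower (8.54%). This balance of directions depended on the processing. With normexp background correction 2485 of 16782 regions were higher and 815 lower at that p, and with loess within arrays 701 and 1818. Without DR model replicate 3 they were 2253 and 2215. The call at the adjusted p rests on 1 array. Without DR model replicate 3 the fit called 1428 regions (8.51%), 637 of them higher (3.8%) and 791 lower (4.71%). Leaving out any other of the 6 arrays gave 0. DR model replicate 3 was the model array most like CaD, and without it no scan held both groups. Group and scan therefore cannot be told apart in those 1428 calls.

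In 2759 regions (16.4%) the CaD and DR model arrays did not overlap, 1116 with CaD above (6.65%) and 1643 with CaD below (9.79%). The direction of these followed the level of the region. In the lowest of 5 equal bins by mean log2 ratio, 289 regions were separated upward (8.61%) and 46 downward (1.37%), and in the highest bin 43 upward (1.28%) and 774 downward (23.1%). The medians over regions on each array show which samples made the tilt. In the highest bin they were 0.64, 0.67 and 0.51 in DR model replicates 1 to 3. In CaD replicates 1 to 3 they were 0.52, 0.50 and 0.49. DR model replicates 1 and 2 stood above the rest, and DR model replicate 3 lay just below CaD replicate 1. Within scan 6 the lowest bin had a median difference of -0.0068 and the highest one of -0.0032, against 0.11 and -0.11 over all 6 arrays. DR model replicate 3 itself differed from the mean of replicates 1 and 2 of its group by a median of 0.22 at the low end and of -0.14 at the high end.

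**Figure D2:**
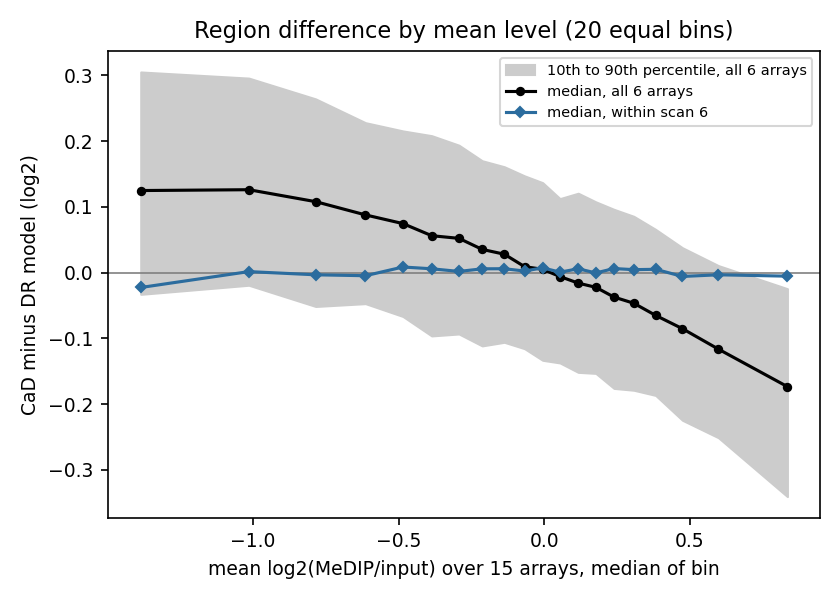
Difference CaD minus DR model (log2) of regions against their mean log2(MeDIP/input) over 15 arrays, in 20 equal bins; black points are medians over all 6 arrays, the grey band the 10th to 90th percentile of regions, and blue points medians within scan 6. The black line falls through 0 from low to high regions, and the blue line stays near 0.

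Regions made of short probes therefore held most of the downward separations. Of 5027 regions with a mean probe length under 47 nucleotides, 824 were separated downward (16.4%) and 237 upward (4.71%), with a median difference of -0.044. Of 3185 regions with a mean of 52 nucleotides or more, 72 were separated downward (2.26%) and 281 upward (8.82%), with a median of 0.096. The 8570 regions between these lengths had 747 downward (8.72%) and 598 upward (6.98%) and a median of 0.0071. The number of probes in a region mattered less. Separations in either direction made up 19.9% of 1397 regions with 3 to 5 probes, 16.1% of 11250 with 6 to 10 and 16.2% of 4135 with 11 or more.

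Chromosome means differed little. Of 22 chromosome classes (the 20 numbered autosomes, X and unplaced sequence, Un), 12 had a higher and 10 a lower mean with CaD, and differences ran from -0.033 on chromosome 12 to 0.027 on Un. Chromosome 19 was the sole one without overlap, at 0.12, 0.15 and 0.12 in DR model replicates 1 to 3 and 0.11, 0.11 and 0.091 in CaD replicates 1 to 3. Its difference was -0.027 (exact two-sided permutation test, p = 0.1, and 1 after adjustment over 22 chromosomes). On chromosome 12, the lowest, the arrays read 0.14, 0.18 and 0.13 in DR model replicates 1 to 3 and 0.14, 0.12 and 0.094 in CaD replicates 1 to 3, and CaD replicate 1 overlapped the model (exact permutation p = 0.3). Both chromosomes are those with the shortest mean probe length, 47.6 nucleotides each, and they had the highest shares of regions separated downward, 15% on chromosome 12 and 15.3% on chromosome 19 against 9.79% of all regions.

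At the other end stood Un, at 0.027 (exact permutation p = 0.5), and chromosome 11, at 0.021 (p = 0.5). Un averaged -0.19, -0.13 and -0.099 in DR model replicates 1 to 3 and -0.11, -0.11 and -0.13 in CaD replicates 1 to 3, so that a low DR model replicate 1 set its difference. The X chromosome, with 606 regions and the longest mean probe length (50.7 nucleotides), averaged -0.17, -0.23 and -0.16 in DR model replicates 1 to 3 and -0.18, -0.13 and -0.20 in CaD replicates 1 to 3, with a difference of 0.014 (exact permutation p = 0.7). The order of chromosomes followed probe length: over the 22 classes, the difference correlated with mean probe length at r = 0.80 (Spearman's rho 0.75), as a description of 22 points that share the same arrays. After each array was centred within each probe length, chromosome differences ran from -0.029 to 0.016, chromosome 19 overlapped, and X turned to -0.025 without overlap. Within scan 6 the named chromosomes differed by -0.0058 (12), -0.011 (19), 0.0068 (11), -0.011 (Un) and -0.0022 (X), and without DR model replicate 3 by -0.041, -0.032, 0.037, 0.049 and 0.030 in the same order.

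**Figure D3:**
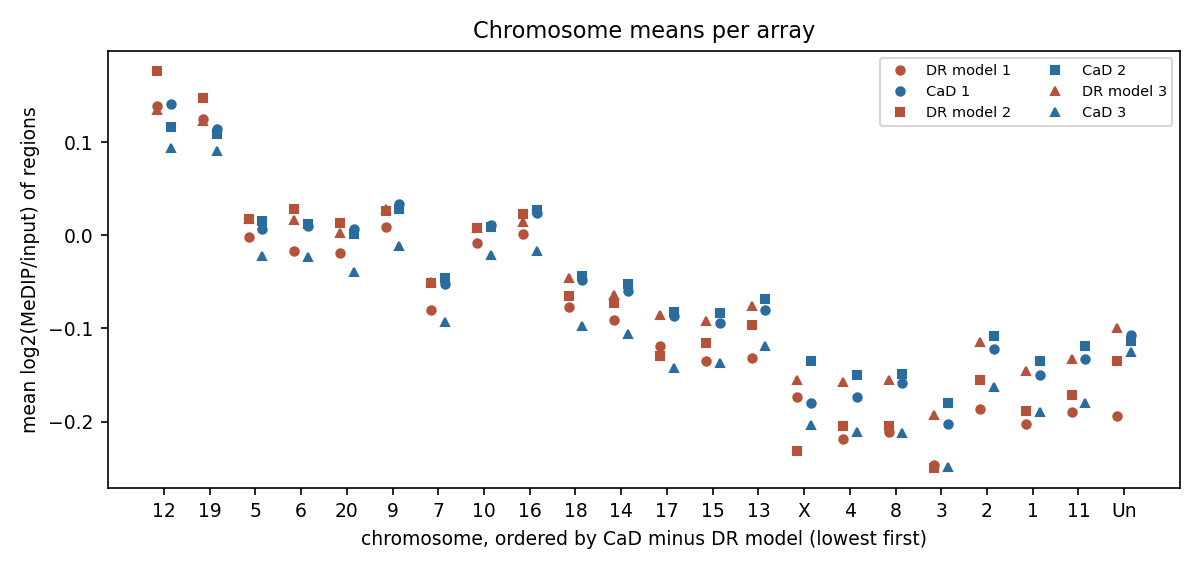
Mean log2(MeDIP/input) of the regions of each chromosome on each array (red DR model, blue CaD, markers for replicates), with chromosomes ordered by CaD minus DR model from -0.033 (chromosome 12) to 0.027 (Un). Chromosome 19 is the sole one where no blue point reaches a red one, and on all others the groups overlap.

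Smaller windows of the genome were read after this centring by probe length. In 703 windows of 2 Mb with at least 8 regions each, 14510 regions in all, mean differences ran from -0.14 to 0.13, and the middle 90% lay between -0.077 and 0.046. All regions of a window were higher in 3 windows and lower in 1. The windows named here were chosen after their values were seen. The highest was chrX:48000001-50000000, where 8 of 9 regions were higher with CaD. Its uncentred region mean was -0.38, -0.33 and -0.16 in DR model replicates 1 to 3 and -0.082, -0.041 and -0.17 in CaD replicates 1 to 3, so DR model replicate 3 lay above CaD replicate 3 and the groups overlapped. The uncentred difference was 0.19, and 0.094 within scan 6. On chr8:34000001-36000000, 17 of 20 regions were higher, 6 of them without overlap, but the window means overlapped. The uncentred difference there was 0.15 over all 6 arrays and 0.014 within scan 6. The lowest window by the centred mean was also on X, chrX:96000001-98000000, with 5 of 8 regions lower. Its uncentred difference was -0.084, and -0.035 within scan 6. The groups overlapped, at 0.27, 0.077 and 0.16 in DR model replicates 1 to 3 and 0.11, 0.13 and 0.0092 in CaD replicates 1 to 3. Uncentred, chr1:262000001-264000000 was lower, at -0.13. X thus held both ends of the centred range only, in windows with few regions.

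Single regions were named by rank, as the first 8 in each direction by p among those without overlap, and since this contrast chose them their values are a description. Their adjusted p in the limma fit lay between 0.105 and 0.113, and differences between 0.35 and 0.66 for the higher and between -0.91 and -0.32 for the lower. The files give positions on the rn4 assembly and no gene, exon or promoter annotation, so none of the regions below is placed in a gene.

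The largest of them was chr14:103656593-103657888, a region of 9 probes over 1296 bp. Its mean log2 ratio was 1.85, 1.80 and 1.32 in DR model replicates 1 to 3 and 0.78, 0.64 and 0.84 in CaD replicates 1 to 3. Every CaD array lay at least 0.48 below the lowest model array, which was DR model replicate 3. The difference was -0.91 ± 0.16 (SE, limma, adjusted p = 0.105). All 9 probes were lower with CaD, and the first 7 of them, side by side, did not overlap. The first probe, at chr14:103656593-103656639, read 3.13, 1.96 and 1.45 in DR model replicates 1 to 3 and 0.64, 0.76 and 1.24 in CaD replicates 1 to 3. The last 2 probes overlapped. Left without its most different probe, the region still differed by -0.84. Taken by channel, with log2 signals centred on the median of each array, the difference was -1.10 in MeDIP and -0.16 in input. Averaged over the probes, the 6 arrays held 41.7 to 106 intensity units for MeDIP and 20.2 to 34.0 for input, where the array medians were 39.0 to 73.7 and 45.2 to 72.9.

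The other groups divided at the same region. Controls read 1.47, 1.43 and 1.99 and lay with the DR model. LTF arrays read 0.86, 0.81 and 0.85 and lay with CaD, and the other formula read 1.20, 0.76 and 0.59. Some control arrays shared a scan with a DR model array, and the other formula arrays shared one with a CaD array. The part of the scan in these readings was not tested. Within scan 6 the region differed by -0.61, and without DR model replicate 3 by -1.07.

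A second long run of lower probes was on unplaced sequence. At chrUn:25164053-25165834 the region mean was 1.02, 1.11 and 1.07 in DR model replicates 1 to 3 and 0.76, 0.67 and 0.71 in CaD replicates 1 to 3. The difference was -0.35 ± 0.065 (SE, limma, adjusted p = 0.105). Of 9 probes, 6 did not overlap and 7 were lower, and 1 low probe was left out as an outlier on DR model replicate 3 and CaD replicate 3. Over the 8 probes measured on all 6 arrays, the model read 1.19, 1.29 and 1.07 and CaD 0.91, 0.75 and 0.71, and DR model replicate 3 was the model array nearest to CaD. The difference was then -0.39. The fall lay in the 4 probes at the start and in a pair toward the end, whereas the 2 probes in the middle read 0.10 and 0.21 higher with CaD. The first probe, the highest of the region, fell from 2.68, 2.75 and 2.35 to 2.03, 1.54 and 1.86.

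Other lower regions were spread in the same way over several probes. At chr1:67456312-67457417 the arrays read 1.03, 1.18 and 0.77 in DR model replicates 1 to 3 and 0.54, 0.45 and 0.56 in CaD replicates 1 to 3, with 5 of 6 probes lower, 4 of them without overlap. The exception was a 60-nucleotide probe, which was 0.24 higher with CaD. At chr1:79576039-79576560 they read 1.31, 1.43 and 0.96 against 0.71, 0.63 and 0.71, and all 4 probes, each of 45 nucleotides, were lower. At chr1:135520362-135521995 they read 0.55, 0.82 and 0.27 against 0.073, 0.0004 and -0.043, with all 10 probes lower and 5 without overlap. In these 3 regions DR model replicate 3 was the model array nearest to CaD. At chr3:144119798-144120957 it was not: the model read 0.20, 0.28 and 0.29 and CaD 0.0054, -0.079 and -0.11, and 3 neighbouring probes of 45 nucleotides did not overlap.

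In contrast, 2 lower regions leaned on 1 probe. At chr1:76513343-76514065 the fourth of 5 probes read 2.08, 1.14 and 0.60 in DR model replicates 1 to 3 and -0.82, -0.31 and -0.62 in CaD replicates 1 to 3, a difference of -1.86. Without it the region differed by -0.23, against -0.55 with it, and input differed there by 0.39. With normexp background correction it differed by -0.098. At chr7:139197599-139198573 the third of 6 probes read 1.63, 1.15 and 1.35 against 0.059, 0.072 and 0.17, a difference of -1.28, and without it the region differed by -0.20 against -0.38. Both regions still did not overlap after the probe was left out.

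Regions higher with CaD lay mostly below 0 and rested on fewer separated probes. The clearest over its length was chr12:20076362-20076997, with 4 probes, where the arrays read -1.29, -0.97 and -0.81 in DR model replicates 1 to 3 and -0.52, -0.40 and -0.34 in CaD replicates 1 to 3. All 4 probes were higher and 3 of them, each of 45 nucleotides, did not overlap. The difference was 0.60 ± 0.11 (SE, limma, adjusted p = 0.105). At chr1:15929296-15930716 all 9 probes were higher, 2 without overlap, and the region read -0.69, -0.89 and -0.50 against -0.23, -0.15 and -0.28. At chr11:57459449-57460767 all 9 probes were higher as well, again 2 without overlap, with -1.05, -1.26 and -0.95 against -0.76, -0.68 and -0.71. The region at chr7:1137223-1138524 had 5 of 6 probes higher, 1 of them without overlap, and read -0.95, -1.06 and -0.76 against -0.55, -0.46 and -0.54, at a MeDIP signal of 27.1 to 59.4 intensity units. In each of these 4 regions DR model replicate 3 was the model array nearest to CaD.

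Some higher regions leaned on 1 probe. At chr13:80016481-80017144 the first of 3 probes, of 56 nucleotides, read -2.00, -1.54 and -1.30 in DR model replicates 1 to 3 and -0.88, -0.41 and -0.56 in CaD replicates 1 to 3, and the other probes differed by 0.13 and 0.16. At chr1:164180391-164181229 a 60-nucleotide probe read -1.89, -2.17 and -2.27 against -0.63, -0.077 and -0.59. At chr4:152878080-152878642 a 60-nucleotide probe read -2.97, -1.96 and -1.92 against -1.08, -0.73 and -0.93. The last 2 regions overlapped once that probe was left out, with differences of 0.40 and 0.13 in place of 0.66 and 0.44. MeDIP signal at the chr1:164180391-164181229 region was low, 18.5 to 41.7 intensity units on the 6 arrays, and with normexp background correction the region differed by 0.10. At the chr4:152878080-152878642 region the difference was 0.14 with normexp and 0.095 for the median over probes. Over all 16 named regions, 6 of 8 higher and 8 of 8 lower ones stayed without overlap when the most different probe was left out. Counted by probe, 46 of 49 were higher and 51 of 56 lower in the direction of their region, and 16 and 31 of them did not overlap.

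The region at chr20:3539173-3540672 stood apart from the other 15 in its relation to the treated groups. It read -0.30, -0.35 and -0.28 in DR model replicates 1 to 3 and 0.099, 0.028 and -0.0023 in CaD replicates 1 to 3, a difference of 0.35 ± 0.070 (SE, limma, adjusted p = 0.113), with 3 of 9 probes not overlapping. Controls read -0.26, -0.23 and -0.014, the other formula -0.15, -0.12 and -0.21, and LTF -0.40, -0.28 and -0.30. LTF thus lay with the DR model here and CaD above every other array. Against the mean of the other formula and LTF, a contrast added after the data were seen, CaD was higher by 0.28 ± 0.061 (SE, limma, adjusted p = 1.00), so this difference did not pass either. That contrast called 0 of 16782 regions (0%), with 531 at an unadjusted p under 0.05 (3.16%). At each of the other named regions both the other formula and LTF had group means on the CaD side of the DR model, in 7 of 8 higher and 8 of 8 lower regions. Control means lay on the CaD side of the DR model mean in 6 of 8 and 7 of 8 regions, and control arrays overlapped the CaD arrays in only 1, chr3:144119798-144120957. In most of the regions, however, the control mean was closer to the DR model mean than to the CaD mean. At chr14:103656593-103657888 controls averaged 1.63, the DR model 1.66 and CaD 0.75. The exceptions were the chr3 region and chrUn:25164053-25165834, where controls averaged 0.87, the DR model 1.07 and CaD 0.71. The DR model arrays took part in choosing the regions and are shared by all of these readings.

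**Figure D4:**
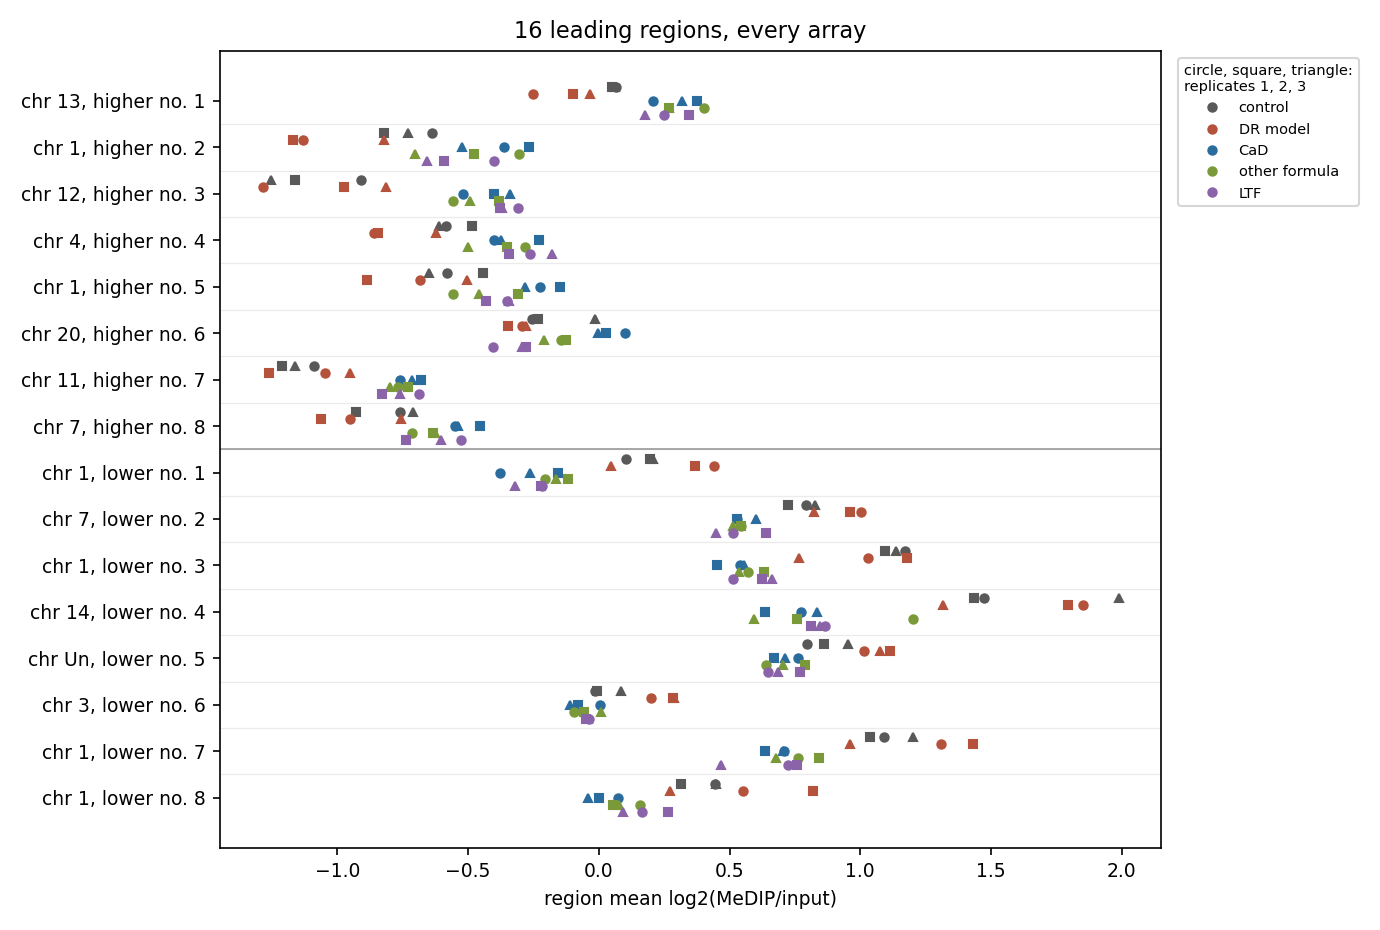
Mean log2(MeDIP/input) of the 16 named regions on all 15 arrays, by group (colours) and replicate (circle, square, triangle), with the 8 regions higher with CaD above the line and the 8 lower below it, each by rank of p. Blue CaD points are clear of the red DR model points in each region by the rule that chose them. Some green (other formula) or purple (LTF) points reach toward the red ones, as the green circle at 1.20 on chromosome 14. Others lie among them, as the green circle at -0.56 at chr1:15929296-15930716. On chromosome 20 all purple points lie with the red ones.

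In each channel apart, the MeDIP difference had the sign of the log2 ratio in all 16 regions. It ran from 0.17 to 0.73 in the higher and from -1.10 to -0.29 in the lower regions, and was larger in size than the input difference in 7 of 8 and 8 of 8. Input differences ran from -0.17 to 0.082 and from -0.16 to 0.39. DR model replicate 3 was the model array nearest to CaD in 8 of 8 higher and 7 of 8 lower regions, over probes measured on all 6 arrays. Within scan 6 the differences were 0.23 to 0.51 and -0.61 to -0.24, with a sign that the rule of no overlap fixes.

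**Figure D5:**
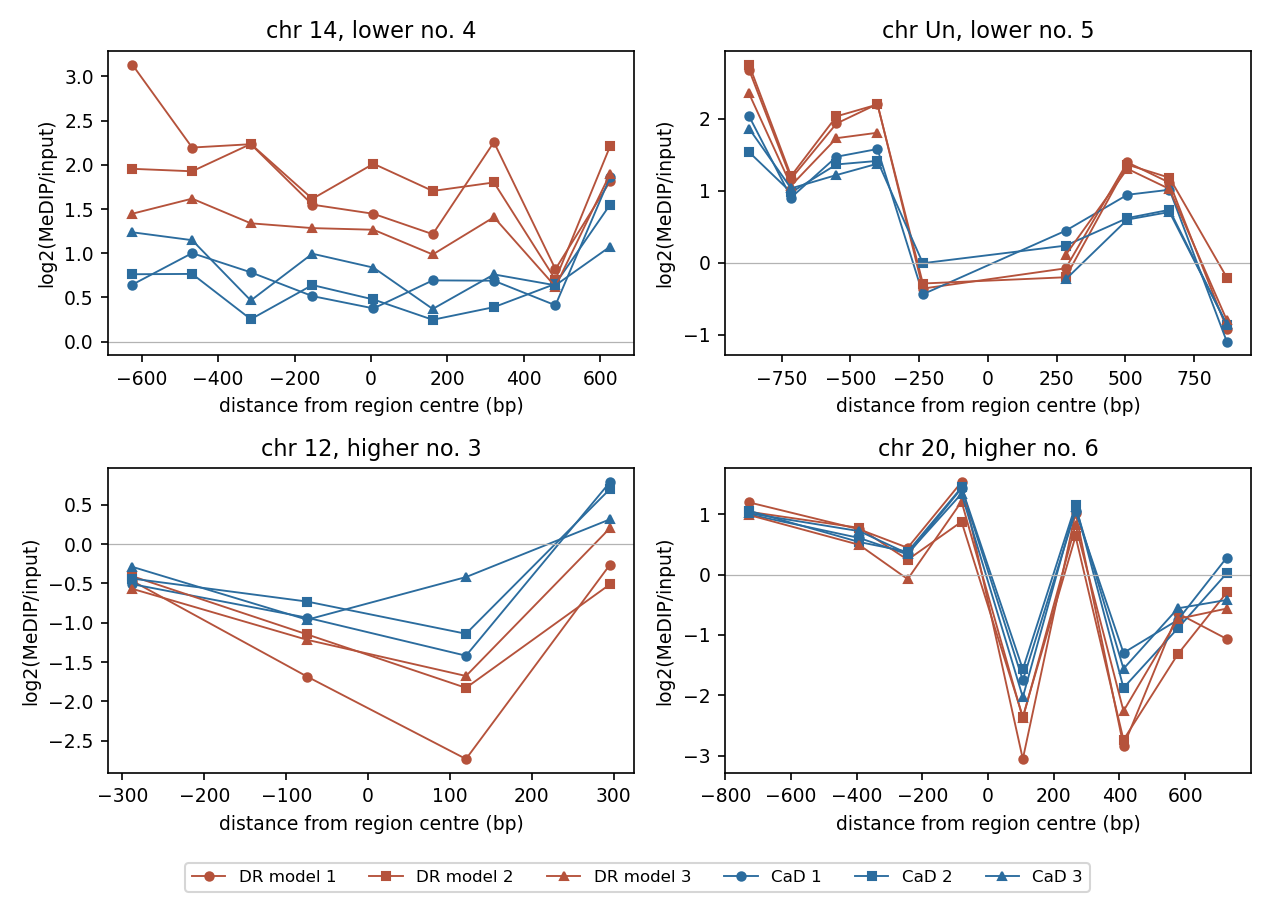
Log2(MeDIP/input) of each probe against its distance in bp from the centre of the region, for the 2 lower (top) and 2 higher (bottom) named regions with the most probes without overlap; red lines are DR model arrays and blue lines CaD arrays. On chromosome 14 the blue lines lie below the red ones over the first 7 of 9 probes, while on chromosome 20 they part at 3 probes.

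Runs of neighbouring probes gave a view that does not depend on region means. Of 164035 probes with a value on all 6 arrays, 12924 had CaD above the DR model on every array (7.88%) and 19650 below it (12%). Runs of at least 3 such probes in a row numbered 112 upward and 460 downward, and runs of at least 5 numbered 1 and 16. The longest was the run of 7 on chromosome 14 given above. Runs of 6 were at chr9:93254102-93254945, chrUn:427413-428354 and chrX:7496168-7497017, all lower with CaD.

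The run on unplaced sequence had the highest ratios of these. It averaged 2.47, 2.88 and 2.39 in DR model replicates 1 to 3 and 1.86, 1.71 and 1.71 in CaD replicates 1 to 3, and fell by 0.82, with 0.60 lower within scan 6. The X run averaged 1.55, 1.76 and 1.34 against 1.17, 1.03 and 1.11. The chromosome 9 run averaged 1.26, 1.35 and 1.02 against 0.73, 0.76 and 0.82. In all 3 the groups were apart, and DR model replicate 3 was the lowest model array. Controls at these runs read 1.82, 1.73 and 2.19 on unplaced sequence, 1.52, 1.22 and 1.55 on X, and 1.15, 0.90 and 1.05 on chromosome 9. Each control array therefore lay above every CaD array on X and chromosome 9, while on unplaced sequence 2 of 3 controls lay within it.

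The other runs of 5 were shorter and lay on 10 autosomes. The sole upward one, chr1:163299429-163300184, averaged 0.12, 0.29 and 0.24 in DR model replicates 1 to 3 and 0.46, 0.47 and 0.42 in CaD replicates 1 to 3. Its difference within scan 6 was 0.23, nearly that over all 6 arrays (0.24). Among the downward runs, chr3:90156575-90157303 kept the most of its difference within scan 6, -0.45 of -0.51, and averaged 1.24, 1.16 and 1.13 against 0.75, 0.62 and 0.64. At chr5:128170303-128171032 the arrays read 0.89, 1.11 and 0.52 against 0.24, 0.073 and 0.20, and the difference within scan 6 was -0.36 of -0.67. Runs were picked for their lack of overlap, so their values are a description with no test. None of the regions that hold them passed in the limma fit, where their adjusted p lay between 0.105 and 0.527.

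Neighbouring probes moved together only weakly in this comparison. The differences of adjacent probes within a region correlated at r = 0.19 over 139994 pairs, and those of the last and first probes of successive regions at 0.020 over 15892 pairs, as a description of probes on the same arrays. In regions without overlap a median of 70% of the probes pointed the region's way where CaD was higher and 77.8% where it was lower, against 60% in the overlapping regions. All probes pointed one way in 71 of the 1116 upward and 204 of the 1643 downward regions, and in 384 of the 14023 overlapping ones. Regions without overlap were picked by their means, which are made of these probes. A larger share of agreeing probes follows at least in part from that choice, and the shares are a description.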

How the data were processed

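Scanner files of 15 2-colour MeDIP arrays were used. Per the file headers, the deposited processed signal of each spot is an intensity, background-subtracted and dye-normalised by Feature Extraction 11.0.1.1, and the positions are rn4. The authors' deposited log10 ratio per spot is Cy5 (MeDIP) over Cy3 (input). Values in the table the authors deposited are treated as log2, which no source used here states, and served as an alternative. The submitters' processing notes name limma without a role. From the intensities, log2 ratios of 172669 probes were computed without 6856 control spots and without outlier spots, 235 to 4540 on the 6 arrays compared, and each array was centred on its median. Runs of at least 3 probes with gaps of at most 500 bp were averaged into 16782 regions. Region means were fitted with limma 3.58.1 in R 4.3.3 (lmFit and eBayes, a mean for each of 5 groups, 1 shared spread), with Benjamini-Hochberg adjustment and a threshold of 0.05. Lengths and chromosomes were tested by exact permutation over arrays. Tested on simulated data (16782 regions), the fit called 37 of 50 regions raised by 0.5, 36 of 50 lowered by 0.5, 13 of 50 raised by 0.3 and 50 of 50 raised by 1. The simulated noise was independent between arrays. In the measured arrays a fit with scan as a random block gave a correlation of 0.39 within scans. The simulated counts therefore do not tell how many such regions would be called in the measured arrays.

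Members, lists and tests were chosen with earlier results of these data known. Named lengths were the shortest, longest and most common, named chromosomes the 2 highest, the 2 lowest and X, and named regions the first 8 by p in each direction among those without overlap; runs and 2 Mb windows were added after the data were seen. Labels call replicates biological. Same-numbered replicates correlated at 0.093, -0.22 and -0.25 in their deviations from the group means, so numbers did not pair arrays. Planned tests of promoters, gene lists and blood cell markers, and sequences, were not used here, because the files pair probes with neither sequence nor gene and the gene table at hand is of another assembly. The precision is limited by the number of arrays.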

Additional observations from a re-analysis of the deposited data

How the results depend on the processing

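The count of regions at an adjusted p under 0.05, which was 0, became 5 with normexp background correction, 3 with quantile normalization, 79 in the authors' value table (13 higher, 66 lower), 24 with only probes well above background (74.97% of probes), 33 within scan day 1 and 10 for single probes. The totals tested were 16784 regions in the authors' table and 17018 regions joined from the probes well above background. They were 149550 for single probes and 16782 regions for normexp, quantile normalization and scan day 1, so the counts are not on one scale. Within scan day 1 only DR model replicate 2 and CaD replicate 3 were compared, which leaves 1 array per group. Leaving out each replicate gave 0 to 1428 of 16782 regions. Dividing each array by its slope, added after the data were seen, gave 4, and leaving out DR model replicate 2 with CaD replicate 3, also added, gave 0, as did averaging only probes measured on all 6 arrays (added, 1087 upward and 1852 downward regions without overlap). It stayed 0 under loess, centring within probe length, outliers kept, the 6 arrays alone, scan as a fixed or random block, scan day as a block, within scan 6, within scan day 3, other joins of probes and the median of a region. The replicate block gave 0 and 2294 at an unadjusted p under 0.05, and since the numbers do not pair the arrays it is no paired analysis. Of 384 values of the 16 named regions under 24 alternatives, 0 changed sign. Where arrays are only left out, or read within a scan or day, the rule of no overlap fixes that sign. Of the 384 values 37 passed. Among these, 16 came without DR model replicate 3, where group and scan cannot be told apart, and 10 from the authors' table. The same contrast chose the regions by p, so the passes are a description. Size was less steady: 47 values moved by over 1.5 times, 14 of the 16 regions being smaller with normexp, 11 in the authors' table, 7 within scan 6, 7 with scan as a fixed block and 1 with quantile normalization. The median over probes moved 6 and scan day 1 moved 1. Scan as a fixed block and the reading within scan 6 gave the same value at each named region, because only scan 6 holds both groups. They are the same estimate, entered under both names in these counts. The named regions have no value under other joins, single probes or the filter on dim probes.

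The difference in interquartile range, -0.20, was -0.020 with normexp, -0.034 in the authors' table and 0.0043 within scan 6; quantile normalization sets it to 0 by construction. That in slope on the mean profile was 0.021 with quantile normalization and 0.00023 within scan 6. The 45-nucleotide difference was 0.0082 with normexp, -0.019 with quantile normalization, -0.019 in the authors' table and -0.013 within scan 6. That of 60 nucleotides was -0.0069 with quantile normalization and -0.026 in the authors' table. The lowest of 5 level bins gave -0.0066 with quantile normalization, -0.012 in the authors' table and -0.0068 within scan 6. The highest bin gave -0.016 with normexp, -0.016 with quantile normalization, -0.027 in the authors' table and -0.0032 within scan 6. Chromosomes without overlap numbered 2 with normexp, 0 with quantile normalization, 13 with loess and 10 in the authors' table. With normexp chromosomes 12 and 19 turned to 0.010 and 0.015. Chromosome 11 turned to -0.0065 with loess, -0.011 in the authors' table and -0.0083 centred within probe length, and Un to -0.0072 in that table and -0.011 within scan 6. X turned to -0.0088 with quantile normalization, -0.041 with loess, -0.026 in the authors' table, -0.025 centred within probe length, -0.0022 within scan 6, and lay between -0.0084 and 0.030 with each replicate left out, below 0 without DR model replicate 2 (-0.0084) and without CaD replicate 2 (-0.0049). The cause was not tested. Alternatives for promoters were not run. Depth is limited by signal over background, which 60-nucleotide probes passed least.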
